A study of Mus musculus with 16 samples.

Results

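The proteasome genes of the mouse colonic epithelium were followed across 16 mice. They were taken as every gene symbol that starts with Psma, Psmb, Psmc, Psmd, Psme, Psmf or Psmg followed by a number, which gave 50 of the 22396 gene symbols in the tables. RNA was sequenced from EpCAM+ cells sorted from the distal colon, and expression was given as TPM, a length-corrected share of the transcripts in a library. All mice carried a floxed Tnfr2 (Tnfrsf1b) allele. Controls were Tnfr2-f/f, and the mice labelled Tnfr2ko were Vil1::Cre;Tnfr2-f/f, in which the villin promoter drives Cre recombinase in the intestinal epithelium. Of the adult mice, 3 controls and 4 Tnfr2ko mice had drunk 3% dextran sulfate sodium (DSS), which injures the colonic epithelium, for 6 days. A further 4 controls and 5 Tnfr2ko mice had drunk water. The labels place collection at day 12 after the start of treatment, and the study describes the DSS samples as taken from injured regions and the others as uninjured. The study's text gives another DSS concentration than the labels and places the uninjured samples before exposure, and the label values are used here.

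The proteasome degrades proteins that carry ubiquitin chains. Its core particle is a barrel of alpha and beta rings, and a regulatory particle with an ATPase ring, further base subunits and a lid recognises, unfolds and feeds in the substrate. Interferon-γ and other inflammatory signals replace the catalytic beta subunits Psmb5, Psmb6 and Psmb7 by the inducible Psmb8, Psmb9 and Psmb10, and this immunoproteasome, often capped by the Psme1-Psme2 activator, yields peptides suited to presentation on MHC class I. In the gut, leukocytes carry the immunoproteasome at steady state, and epithelial cells acquire it under inflammatory signals.

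The 50 genes comprised 7 of the alpha ring, 7 of the beta ring, 6 of the ATPase ring, 3 further base subunits, 8 of the lid, 7 assembly factors, the 5 immunoproteasome genes and 4 other regulators. The remaining 3 were Psma8, an alpha subunit of the testis, Psmb11, a beta subunit of the thymic cortex, and Psmc3ip. The last is a recombination factor and not a subunit of the proteasome. Of the 50, 47 passed the filter on low values, a 16-mouse average of 1 TPM or more. Psma8, Psmb11 and Psmc3ip did not. Psma8 was listed at 0 in most mice and reached at most 0.332 TPM. Psmb11 reached 0.287 TPM and Psmc3ip 1.5 TPM at most.

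The inducible genes lie in 3 places of the genome (GRCm38). Psmb8 is at chr17:34197721-34201454 on the plus strand and its neighbour Psmb9 at chr17:34181987-34187764 on the minus strand, both within the MHC region. Psmb10 is at chr8:105935735-105938444 on the minus strand. Psme2 is at chr14:55587441-55591113 on the minus strand, close to Psme1 at chr14:55578123-55581529 on the plus strand. The activator gene Psme4 is at chr11:30771726-30880361 on the plus strand.

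Promoter sequence was available from RefSeq (GRCm38.p6) for 42 of the 50 genes, from 250 bases before the transcription start to 50 bases from it. Short patterns were searched on both strands: GAAANNGAA for interferon regulatory factors (IRF), TTCNNNGAA for the interferon-γ-activated sequence (GAS), TGACNNNGC for the antioxidant response element (ARE), and GGGANNNCC for NF-kB. Of all promoters in the table, 8.56% held the IRF pattern, 8.3% the GAS, 12.4% the ARE and 18.6% the NF-kB pattern. Among the inducible genes, Psmb5, Psmb6, Psme3 and Psme4, the matches were the 6 printed here, shown because these are the genes whose levels are set against each other below. Psmb7 had no entry in the promoter table. Each line runs 5′ to 3′ on the gene's strand with the matched letters in capitals.
Psmb8 GAS, chr17:34198088-34198116, plus strand: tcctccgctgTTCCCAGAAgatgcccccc
Psme1 IRF, chr14:55578494-55578522, plus strand: gagctgtgctTTCGCTTTCccttcccgct
Psme1 NF-kB, chr14:55578423-55578451, plus strand: cctctcagtaGGCTGTCCCcgcctcctcc
Psmb5 ARE, chr14:54618024-54618052, minus strand: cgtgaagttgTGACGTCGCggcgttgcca
Psmb6 ARE, chr11:70525338-70525366, plus strand: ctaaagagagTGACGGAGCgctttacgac
Psme4 ARE, chr11:30771758-30771786, plus strand: cgctgcggctGCAGCGTCAccagaagagc
The Psmb5 and Psmb6 stretches lay outside annotated exons. The Psmb8, Psme1 and Psme4 stretches lay within an exon of an annotated transcript. Over the genes with a promoter, 7 of 42 proteasome genes (16.7%) held the IRF pattern against 9.76% of all genes, and 6 of 42 (14.3%) held the ARE pattern against 14.0% of all genes. The GAS pattern was in 3 of 42 (7.14% against 9.55%) and the NF-kB pattern in 9 of 42 (21.4% against 20.7%). The patterns are letters in a window and not evidence of binding.

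Libraries held about the same listed TPM in both treatments, with 539359 to 662142 after DSS and 487469 to 861109 on water. The tables of DSS-treated and water-treated mice had been scaled separately, so no test was run between them. All 16 mice were instead put on one scale by median-of-ratios factors, which ran from 1.133 to 1.24 for DSS and from 0.905 to 0.94 for water. Levels below are rescaled TPM, and differences between treatments are the DSS mean minus the water mean of log2(rescaled TPM + 1), with the standard error (SE) over mice. No cage held both treatments, so cage and treatment cannot be told apart, and the DSS-treated mice were all female. Tnfrsf1b did not check the genotype labels: it was 10.8 to 19.3 TPM in DSS controls, 11.3 to 22.7 in DSS Tnfr2ko mice, 12.2 to 17.0 in water controls and 9.82 to 16.4 in water Tnfr2ko mice. The study itself reports the loss of TNFR2 from EpCAM+ cells of this genotype by flow cytometry and RT-qPCR. One library, DSS control replicate 3, stood apart from the other DSS-treated mice in many proteasome genes. It shared cage c with DSS Tnfr2ko replicate 1 only, and these cage mates had the highest DSS levels of Psmb10 (47.8 and 44.4 TPM against 27.1 to 32.9 TPM in the others) and of Psmd3 (56.4 and 51.3 TPM against 32.4 to 47.2 TPM), so library and cage cannot be told apart there. In Psma6 and Psmb6, by contrast, the cage mate lay within the range of the other DSS-treated mice. Psma6 was 94.2 TPM in DSS control replicate 3, 130 TPM in its cage mate and 123 to 135 TPM in the others. Psmb6 was 127, 83.3 and 64.0 to 86.2 TPM in the same order. The part of the cage was not tested. Results that rest on DSS control replicate 3 are given with and without it.

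Psmb8 and Psmb9 were the proteasome genes lowest after DSS relative to water. Psmb8 encodes the inducible chymotrypsin-like subunit that takes the place of Psmb5. Its level after DSS was 5.55, 4.3 and 7.21 TPM in control mice and 3.7, 4.77, 2.16 and 0.862 TPM in the Tnfr2ko mice. On water it was 23.1, 19.7, 15.1 and 28.6 TPM in control mice and 17.2, 36.7, 15.5, 33.3 and 21.3 TPM in the Tnfr2ko mice. Every DSS-treated mouse lay below every water-treated mouse. The difference was -2.33 on the log2 scale (SE 0.31), -1.75 in controls alone and -2.78 in Tnfr2ko mice alone, and 3.5% of the 11247 genes that passed the filter had a lower value.

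Psmb9, the inducible partner of Psmb6, showed the same order. Its level after DSS was 6.64, 3.78 and 7.56 TPM in control mice and 4.61, 2.3, 2.82 and 1.98 TPM in the Tnfr2ko mice. On water it was 12.1, 14.1, 12.9 and 14.9 TPM in control mice and 11.4, 13, 12.3, 17.8 and 14.3 TPM in the Tnfr2ko mice. The ranges did not overlap, and the difference was -1.58 (SE 0.23). Ranked among all genes that passed the filter within each library, Psmb9 stood at the 20.2 to 51.4 percentile after DSS and at 61.1 to 71.5 on water, and Psmb8 at 10.4 to 50 and at 68.7 to 85.4.

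The third inducible subunit did not follow them. Psmb10, which replaces Psmb7, was 27.1 to 47.8 TPM after DSS with a median of 32.6, and 32.7 to 46.2 TPM on water with a median of 38.3. The ranges overlapped and the difference was -0.19 (SE 0.13). On TPM as deposited the sign turned and it was 0.16, where the median of all genes itself moved from 0.01 to 0.32, so that relative to all genes Psmb10 was at -0.21 and -0.16. For Psmb8 the same relative difference was -2.35 on both scales. Psmb10 lies on another chromosome than Psmb8 and Psmb9.

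The activator pair differed again. Psme2 was 72.7, 36.7 and 43.8 TPM in the DSS controls and 58.2, 55.7, 70.3 and 55.7 TPM in the DSS Tnfr2ko mice. On water it was 39.3, 26.3, 50.3 and 30.5 TPM in control mice and 42.6, 21.9, 27.4, 26.2 and 31.6 TPM in the Tnfr2ko mice. Both DSS control replicates 2 and 3 lay within the water range, and the difference was 0.76 (SE 0.18). Of the 31-base windows of the listed Psme2 transcript 66.2% also occur in transcripts of other genes, chiefly its retrocopy Psme2b, so the division of reads between them is uncertain.

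Psme1 was listed at 0 in 7 of the 9 water-treated mice and had 22.3 TPM in control replicate 3 and 9.29 TPM in Tnfr2ko replicate 1. After DSS it was 25.1, 9.58 and 3.55 TPM in control mice and 9.94, 4.18, 11.1 and 12.1 TPM in the Tnfr2ko mice. With so many values at 0 no fold is given.

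**Figure D1:**
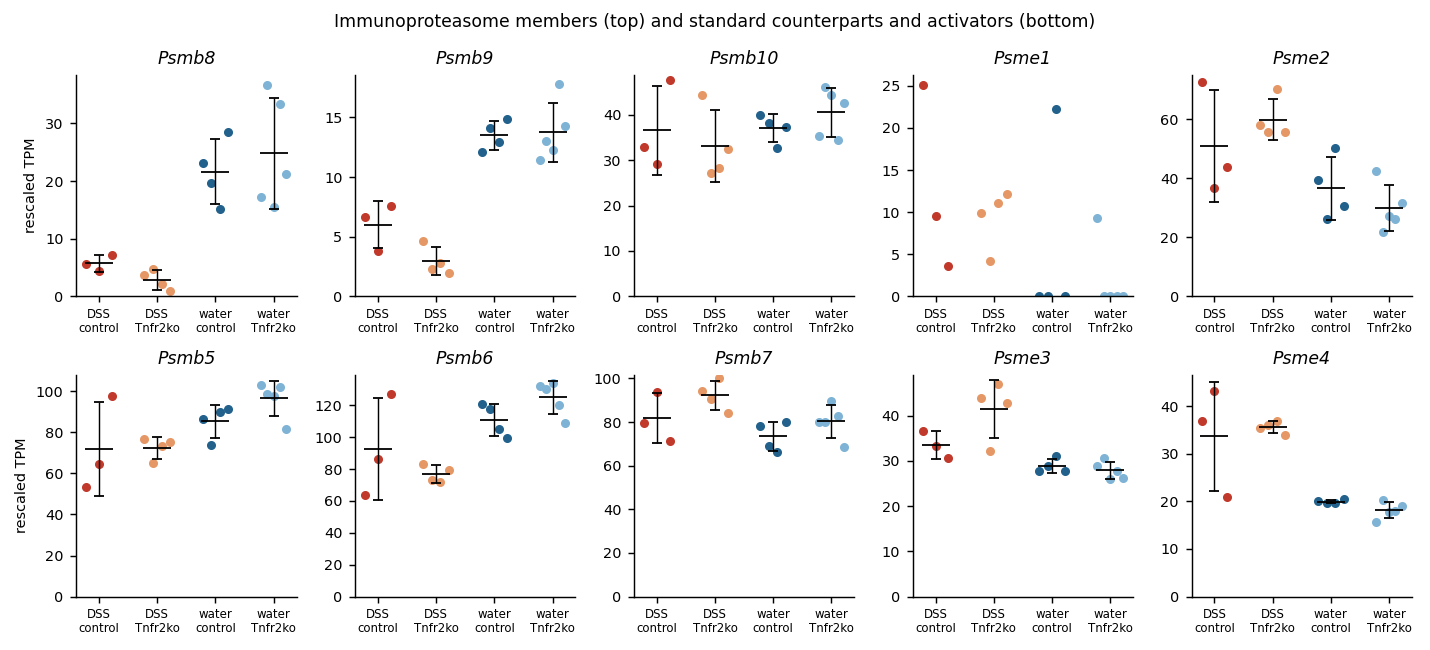
Rescaled TPM (vertical axes, from 0) of the 5 immunoproteasome genes and of Psmb5, Psmb6, Psmb7, Psme3 and Psme4 in the 4 groups. Points are mice and bars are the mean ± SD, left out for Psme1. Psmb8 stayed at or below 7.21 TPM after DSS and at or above 15.1 TPM on water, while Psmb10 overlapped.

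Over all 47 genes that passed the filter, 2 were lower after DSS without overlap between the 7 and 9 mice (Psmb8 and Psmb9) against 6.96% of all genes. A single gene, Psme4, was higher without overlap, against 4.52% of all genes. These are 2 and 1 of 47 genes, no larger a share than among all genes. The median difference over all genes was 0.01, and over the 31 constitutive subunits it was 0.22, with 21 of 31 (67.7%) above 0 against 50.9% of all genes.

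Ratios within a library do not depend on the scale between tables. Psmb8 reached 6.64% to 10.4% of the Psmb5 level in DSS controls and 1.14% to 7.35% in DSS Tnfr2ko mice. It reached 16.8% to 31.3% in water controls and 15.8% to 37.3% in water Tnfr2ko mice. The treatments did not overlap, and the mean log2 ratio was -4.37 (SD 1.08, n = 7) after DSS and -2.03 (SD 0.46, n = 9) on water.

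Psmb9 reached 2.48% to 10.4% of Psmb6 after DSS and 8.63% to 14.9% on water. The overlap came from DSS control replicate 1, at 10.4%, since the other DSS-treated mice were at 5.95% or below. Psmb10 reached 28.3% to 66.9% of Psmb7 after DSS and 41.6% to 61.9% on water, with the highest value in DSS control replicate 3. The mean of Psme1 and Psme2 was 69.8% to 133% of Psme3, the nuclear activator subunit, after DSS and 35.7% to 117% on water. This pair includes the Psme1 values of 0.

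**Figure D2:**
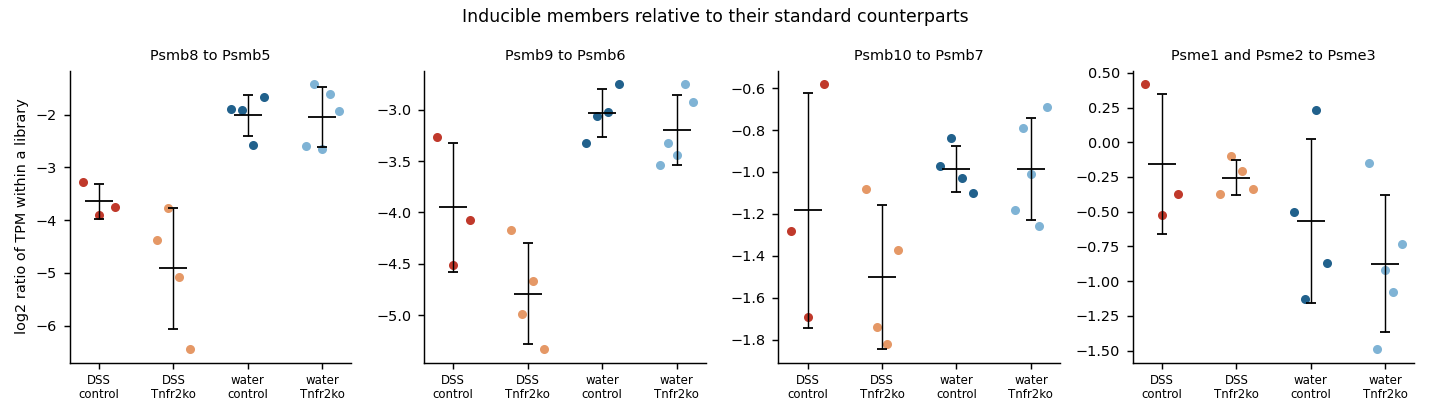
The log2 ratio of each inducible gene to its standard counterpart within a library (vertical axes) in the 4 groups, with points for mice and bars for the mean ± SD. Psmb8 to Psmb5 separated the treatments, with means of -4.37 after DSS and -2.03 on water, and the other ratios overlapped.

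Most markers of leukocytes were lower after DSS, as Psmb8 and Psmb9 were. Of all genes that passed the filter, 6.96% were lower and 4.52% were higher without overlap. The 6 pan-leukocyte markers (Ptprc, which encodes CD45, Laptm5, Coro1a, Rac2, Lcp1 and Cd52) were all lower after DSS without overlap, with a summed level of 19.4 to 51.6 TPM after DSS and 200 to 532 TPM on water. The 6 macrophage markers were also all lower without overlap, with sums of 13.3 to 41.9 TPM against 1030 to 2360 TPM, and Csf1r, the macrophage growth factor receptor, was 0.462 to 2.58 TPM against 68.4 to 165 TPM. Of the 5 B and plasma cell markers that passed the filter, 2 were lower without overlap, and the sum of the 6 was 7.29 to 388 TPM against 528 to 15600 TPM. Of 6 T cell markers only Cd2 passed the filter, and it was lower without overlap, while Cd8a was listed at 0 in all DSS-treated mice and in 7 of 9 water-treated mice. Both S100a8 and S100a9 of the 3 neutrophil markers were higher after DSS without overlap, with a list sum of 36.3 to 1600 TPM against 3.2 to 15.5 TPM. The third, Csf3r, did not follow them and overlapped, at 0.493 to 9.26 TPM after DSS and 1.57 to 4.7 TPM on water. The 5 stromal markers overlapped, with sums of 86.9 to 395 TPM against 216 to 754 TPM, and so did the 3 endothelial markers, with sums of 3.73 to 9.97 against 2.16 to 12.8 TPM.

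The epithelial identity of the sort was present in every library: the 5 epithelial markers summed to 2730 to 3700 TPM after DSS and 3260 to 4520 TPM on water, and Epcam itself was 762 to 837 against 625 to 781 TPM. The part of these markers in the Psmb8 and Psmb9 levels was not tested. In these bulk samples fewer cells of a type and less RNA per cell cannot be told apart.

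**Figure D3:**
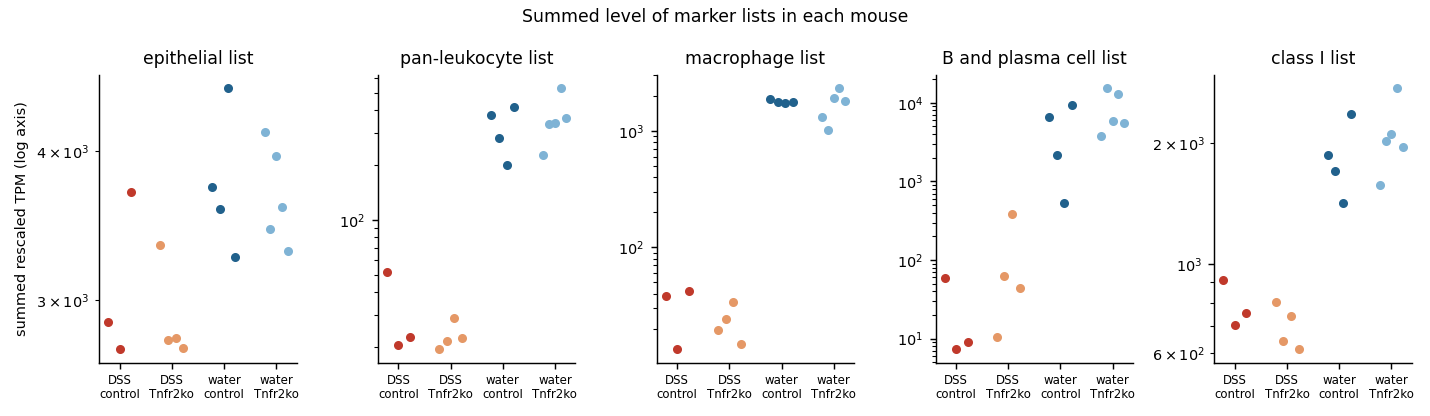
Summed rescaled TPM of 5 gene lists (vertical axes, log scale) in each mouse of the 4 groups. The macrophage list summed to 13.3 to 41.9 TPM after DSS and 1030 to 2360 TPM on water, while the epithelial list overlapped.

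The genes of antigen presentation that work downstream of the immunoproteasome were lower after DSS as well. Of 7 class I genes, 5 were lower without overlap (B2m, H2-K1, H2-D1, Tap1 and Tapbp), against 6.96% of all genes. None was higher, against 4.52% of all genes, and the list median was -1.34. Tap1, which encodes a peptide transporter subunit and lies beside Psmb9, was 1.03 to 6.13 TPM after DSS and 6.53 to 17.0 TPM on water, a difference of -1.65 (SE 0.29). The other two, Tap2 and Erap1, overlapped. Erap1, the trimming peptidase of the endoplasmic reticulum, was 15.0 to 28.9 TPM after DSS and 12.0 to 17.9 TPM on water, and only DSS control replicate 3 lay within the water range.

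Genes of the interferon route were mostly not separated. Of 7 genes 6 passed the filter, and 1 of these, Ifngr1, was lower without overlap, against 6.96% of all genes. It was 71.2 to 89.6 TPM after DSS and 100 to 115 TPM on water. Irf1, a transcription factor of the immunoproteasome genes, was 47.7 to 97.9 against 66.7 to 97.9 TPM. Nlrc5, the transactivator of class I genes, stayed under the filter, at 0.0833 to 1.21 against 0.0 to 2.75 TPM.

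The constitutive subunits differed by part of the particle, with the lowest median in the beta ring on the main scale. In the alpha ring, which gates the barrel, 6 of 7 genes had a difference above 0 and the median was 0.26. In the lid, which removes ubiquitin, it was 7 of 8 with a median of 0.38. In the ATPase ring it was 4 of 6 with a median of 0.06, and in the 3 further base subunits 2 of 3 with a median of 0.24. In the beta ring only 2 of 7 were above 0, with a median of -0.16. Relative to the median of all genes, the beta ring was at -0.17 here, at -0.12 on TPM as deposited and at 0.01 after quantile normalization, so its sign depended on the scaling, while the alpha ring was at 0.24 to 0.39 and the lid at 0.36 to 0.39 on the 4 scalings tried.

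**Figure D4:**
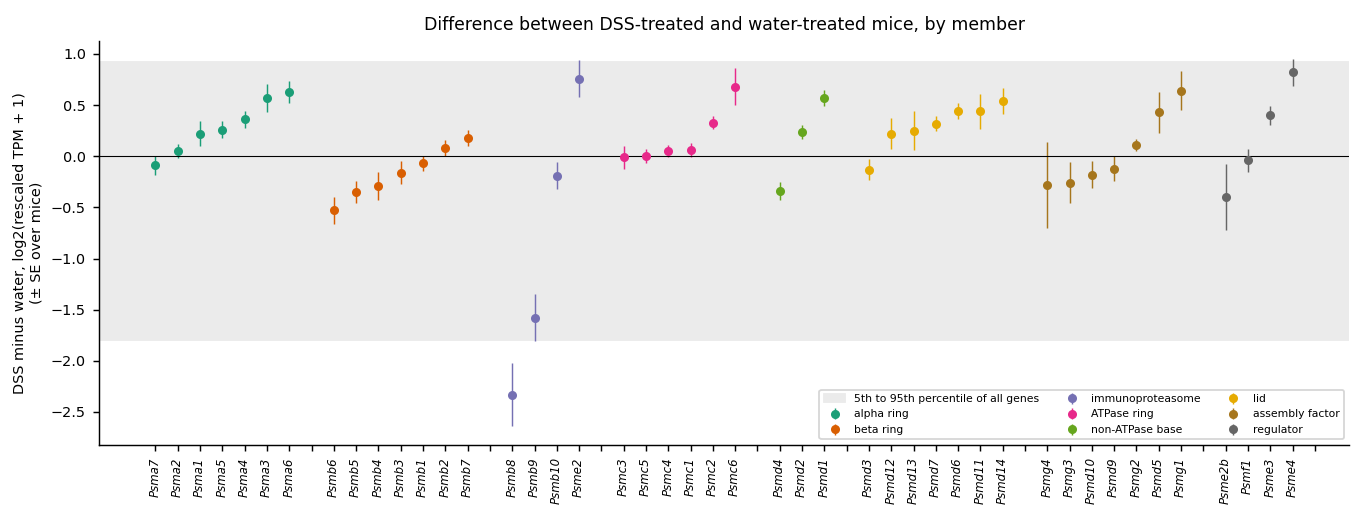
Difference in log2(rescaled TPM + 1), DSS minus water (vertical axis, points with ± SE over mice), of each proteasome gene with a mean of at least 1 TPM except Psme1 and Psmd8, grouped by part. The grey band runs from -1.8 to 0.92, the 5th to 95th percentile of all genes, and Psmb8 at -2.33 lies below it.

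The catalytic subunits of the standard beta ring pointed different ways. Psmb6, the caspase-like subunit, was 64.0, 86.2 and 127 TPM in the DSS controls and 83.3, 73.4, 71.6 and 79.6 TPM in the DSS Tnfr2ko mice, against 99.8 to 134 TPM on water. Without DSS control replicate 3, at 127 TPM, all DSS-treated mice lay below all water-treated mice. The difference of -0.53 (SE 0.13) was the lowest of the ring, and it was -0.17 on TPM as deposited, -0.12 at the same sum and -0.18 after quantile normalization. Psmb5, the chymotrypsin-like subunit, was 53.6 to 97.6 TPM against 74.0 to 103 TPM, a difference of -0.35 that became 0.0 on TPM as deposited. Relative to the median of all genes Psmb5 was at -0.36 and -0.31, and 73.99% of its windows occur in other genes. Psmb7, the trypsin-like subunit, was 71.5 to 100 TPM against 66.5 to 89.8 TPM and had the highest difference of the ring, 0.18.

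In the alpha ring the extremes were Psma6 and Psma7. Psma6 was 126, 135 and 94.2 TPM in the DSS controls and 130, 123, 128 and 124 TPM in the DSS Tnfr2ko mice, against 58.3 to 116 TPM on water. The difference was 0.63 (SE 0.11), and the overlap came from DSS control replicate 3 below and water Tnfr2ko replicate 2 above. Psma7 was 104 to 137 TPM against 105 to 154 TPM, a difference of -0.09.

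Among the ATPases that unfold the substrate, Psmc6 had the highest difference, 0.68 (SE 0.18). It was 33.8, 43.9 and 18.5 TPM in the DSS controls and 31.6, 33.9, 42.5 and 36.0 TPM in the DSS Tnfr2ko mice, against 13.4 to 28.3 TPM on water, so that only DSS control replicate 3 lay within the water range. Psmc3, the lowest at -0.01, was 53.2 to 86.0 against 53.4 to 79.9 TPM. In the base, Psmd1, a large scaffold subunit, was 35.1 to 50.2 TPM against 27.3 to 36.0 TPM, a difference of 0.57 (SE 0.08). Psmd4, a ubiquitin receptor, was 38.2 to 53.9 TPM against 49.1 to 65.9 TPM, a difference of -0.34 (SE 0.09) that became 0.01 on TPM as deposited. Relative to the median of all genes Psmd4 was at -0.35 and -0.31.

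In the lid, Psmd14, the deubiquitinase of the particle, was 43.0 to 59.5 TPM after DSS and 26.6 to 47.8 TPM on water, with a difference of 0.54 (SE 0.13). Psmd3 was the lowest of the lid at -0.13, with 32.4 to 56.4 against 44.4 to 52.5 TPM. Psmd8 was listed at 0 in 3 water Tnfr2ko mice, at 2.52 to 7.86 TPM in the other water-treated mice and at 1.78 to 9.34 TPM after DSS. Of the windows of its listed transcripts, 9.87% and 8.16% are absent from its unlisted ones, so the division of reads is uncertain here too. Among the assembly factors 3 of 7 were above 0, with a median of -0.12 that became 0.19 on TPM as deposited. Relative to the median of all genes it was at -0.13 on both scales. Psmg1, a chaperone of the alpha ring, had the highest difference, 0.64 (SE 0.19), with 13.1 to 25.2 against 6.66 to 21.5 TPM. Psmg4 had the lowest, -0.28 (SE 0.42), and varied from 2.53 to 17.3 and from 3.56 to 28.1 TPM within the treatments.

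Psme4, a nuclear activator that caps the core particle without ATP, was the proteasome gene that was higher after DSS in every mouse. Its level was 36.8, 43.2 and 21 TPM in the DSS controls and 35.4, 36.1, 36.8 and 33.9 TPM in the DSS Tnfr2ko mice. On water it was 20.1, 19.6, 19.7 and 20.4 TPM in control mice and 15.7, 20.3, 17.7, 18 and 19.1 TPM in the Tnfr2ko mice. The lowest DSS value, again of control replicate 3, was close to the highest water value. The difference was 0.82 (SE 0.13), and 93.0% of all genes had a lower one.

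The other regulators differed less. Psme3 was 30.6 to 46.9 TPM after DSS and 25.9 to 31 TPM on water, overlapping only through DSS control replicate 3, with a difference of 0.40 (SE 0.09). Psmf1, which encodes an inhibitor of the core particle, was 8.3 to 14.0 against 8.09 to 14.6 TPM, a difference of -0.04. Psme2b was 0.0 to 2.03 against 0.0 to 4.23 TPM.

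Without DSS control replicate 3, 10 proteasome genes were higher after DSS without overlap (12.2% of all genes were) and 4 were lower (12.0% of all genes). The higher genes were Psma3, Psma4, Psma5, Psma6, Psmc2, Psmc6, Psmd1, Psmd6, Psme3 and Psme4, and the lower ones were Psmb6, Psmb8, Psmb9 and Psmd4. Within controls alone 7 were higher (10.7% of all genes) and 2 were lower (13.9%). Within Tnfr2ko mice alone 13 were higher (17.4%) and 5 were lower (17.8%). Psmb8 and Psmb9 were among the lower genes and Psme4 among the higher ones each time. Genes separated over all mice stay separated within a part of them on the same scale, so this is no further support. The count of higher genes was 4 without water Tnfr2ko replicate 2 (5.18% of all genes), 2 without DSS control replicate 1 (4.83%) and 2 without water control replicate 3 (5.31%).

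The count of higher genes depended on the scale. On TPM as deposited 15 were higher, where 18.9% of all genes were, and 2 were lower, where 4.16% were. By rank within the library 11 were higher (10.1% of all genes) and 2 were lower (5.63%). With every library scaled to the same sum 12 were higher (11.6% of all genes) and 1 was lower (3.55%), and after quantile normalization 11 were higher (10.1%) and 2 were lower (5.22%).

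Of 11 partner genes in the tables, which assemble, cap or control the proteasome, 1 was higher after DSS without overlap, against 4.52% of all genes, and none was lower. This was Ddi2, the protease that activates the transcription factor Nfe2l1, at 11.3 to 16.4 TPM against 5.03 to 8.15 TPM and a difference of 1.01 (SE 0.09). Nfe2l1, the factor that raises proteasome gene transcription when the proteasome is impaired, was 24.4 to 37.3 against 31.4 to 47.1 TPM, a difference of -0.38. Pomp, the maturation chaperone of the core particle, was 28.3 to 35.6 against 23.3 to 36.6 TPM. Among the genes of ubiquitin supply and delivery, the polyubiquitin gene Ubb was lower without overlap, at -0.63, which after quantile normalization was 0.10. Relative to the median of all genes Ubb was at -0.64 and -0.09.

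As a share of all listed TPM, the 31 constitutive subunits made up 0.319% to 0.467% after DSS and 0.219% to 0.334% on water. The 5 immunoproteasome genes made up 0.0156% to 0.0267% and 0.0125% to 0.0226%. Shares rose for most genes: with every library scaled to the same sum, the median difference of all genes was 0.36. Relative to it the constitutive median was at 0.25 and the immunoproteasome median at -0.15. The immunoproteasome median is the value of Psmb10, with Psmb8 and Psmb9 below it and Psme1 and Psme2 above it, so it does not describe the set as a whole.

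No proteasome gene passed the test between genotypes. Genotypes were compared within each treatment by limma on log2(TPM + 1), with Benjamini-Hochberg adjustment over all genes. After DSS, 0 of 46 proteasome genes were called (0.00918% of all genes were, a single gene), and 2 had an unadjusted p under 0.05 (2.65% of all genes did). On water, 0 of 47 were called (0.00905% of all genes, again a single gene) and 1 had an unadjusted p under 0.05 (5.28% of all genes did).

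After DSS the 2 genes with an unadjusted p under 0.05 were Psmd13 and Psmb9. Psmd13, a lid scaffold subunit, was 9.76, 9.77 and 10.1 TPM in control mice and 15.2, 14.1, 12.9 and 13.8 TPM in the Tnfr2ko mice. All 4 Tnfr2ko mice lay above all controls, with a log2 difference of 0.48 (SE 0.12, limma unadjusted p = 0.00481, adjusted p = 1). On water the difference of Psmd13 was 0.33 (SE 0.29, limma unadjusted p = 0.286, adjusted p = 0.866) and the groups overlapped.

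Psmb9 was 3.78 to 7.56 TPM in the DSS controls and 1.98 to 4.61 TPM in the DSS Tnfr2ko mice, as given above, so the groups overlapped. The log2 difference was -0.85 (SE 0.31, limma unadjusted p = 0.0275, adjusted p = 1). Psmb8 was -0.92 (SE 0.42, limma unadjusted p = 0.0619, adjusted p = 1), with control values of 4.3 to 7.21 and Tnfr2ko values of 0.862 to 4.77 TPM. On water Psmb9 was at 0.02 (SE 0.13) and Psmb8 at 0.15 (SE 0.28). Most pan-leukocyte markers had a difference below 0, and none passed the adjusted test. Coro1a, a leukocyte actin regulator, was at -0.82 (SE 0.33, limma unadjusted p = 0.0408, adjusted p = 1). Cd52 was at -0.54 (SE 0.43), Laptm5 at -0.51 (SE 0.41), Lcp1 at -0.21 (SE 0.27) and Rac2 at -0.13 (SE 0.43). Only Ptprc was above 0, at 0.67 (SE 0.69). The macrophage markers tested were below 0, from C1qb at -0.82 (SE 0.41) to Lyz2 (SE 0.41) and Mrc1 (SE 0.38) at -0.15. The B and plasma cell markers tested were above 0: Jchain at 2.08 (SE 1.26), Mzb1 at 0.58 (SE 0.73) and Cd79a at 0.31 (SE 0.39). The pan-leukocyte list summed to 51.6 TPM in DSS control replicate 1, but to 20.4 and 22.6 TPM in the other DSS controls. In the DSS Tnfr2ko mice it summed to 19.4 to 28.9 TPM, so only DSS control replicate 1 lay above them. The part of this list in the Psmb8 and Psmb9 values was not tested.

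On water the gene with an unadjusted p under 0.05 was Psmd14, at 27.6, 38.9, 26.6 and 27.4 TPM in control mice and 40.4, 47.8, 40.3, 42.3 and 29.1 TPM in the Tnfr2ko mice. Control replicate 2 and Tnfr2ko replicate 5 were the mice that made the groups overlap. The difference was 0.40 (SE 0.16, limma unadjusted p = 0.0363, adjusted p = 0.865), and after DSS it was 0.14 (SE 0.13).

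Most constitutive subunits had small differences above 0 in both treatments, none of which passed the test. After DSS 25 of 31 (80.6%) had a difference above 0 and a median of 0.12, against 52.8% of all genes and a median of 0.02. On water 28 of 31 (90.3%) did, with a median of 0.13, against 50.2% of all genes and a median of 0.0. The mean log2 level of the 31 was nevertheless overlapping, at 5.53 to 5.77 in DSS controls, 5.63 to 5.77 in DSS Tnfr2ko mice, 5.4 to 5.56 in water controls and 5.33 to 5.72 in water Tnfr2ko mice. Subunits of one particle are not independent of each other, so the counts describe these mice and carry no test.

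**Figure D5:**
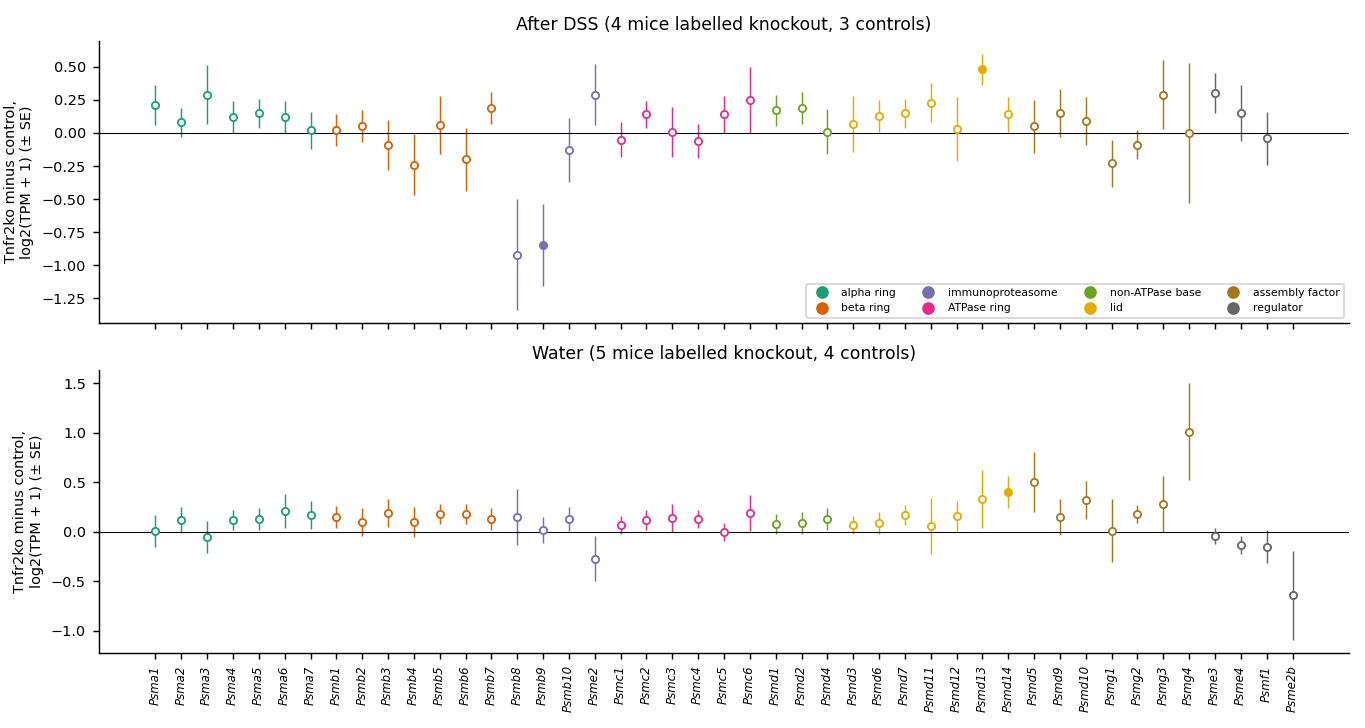
Difference in log2(TPM + 1) between Tnfr2ko and control mice (vertical axes, points with ± SE from limma) for each proteasome gene tested except Psme1 and Psmd8, after DSS (top) and on water (bottom). Filled points have an unadjusted p under 0.05, which were Psmb9 and Psmd13 after DSS and Psmd14 on water, and no point passed the adjusted test.

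The 4 ratios of inducible to standard genes were compared between genotypes by exact permutation of the mice, as a family of 8 two-sided tests. After DSS the log2 ratio of Psmb8 to Psmb5 was -3.65 (SD 0.34, n = 3) in controls and -4.92 (SD 1.15, n = 4) in Tnfr2ko mice, a difference of -1.27 (SE 0.61, exact permutation p = 0.143, adjusted p = 0.571). The ratio of Psmb9 to Psmb6 was -3.95 (SD 0.63, n = 3) and -4.79 (SD 0.49, n = 4), a difference of -0.84 (SE 0.44, exact permutation p = 0.114, adjusted p = 0.571). Both differences pointed the same way within each DSS cage: -0.61 and -1.51 for Psmb8 and -0.1 and -1.11 for Psmb9 in cages c and d, of which cage c held 1 mouse of each genotype. The smallest p these groups allow is 0.0286 after DSS.

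For Psmb10 to Psmb7 the difference after DSS was -0.32 (SE 0.37, exact permutation p = 0.4), and for the Psme pair to Psme3 it was -0.1 (SE 0.3, exact permutation p = 0.914). On water the 4 ratios differed by -0.31 to 0.0, with exact permutation p from 0.413 to 0.984 and adjusted p from 0.673 to 0.984, where the smallest p allowed is 0.00794. None of the 8 passed the adjusted test, with adjusted p from 0.571 to 0.984, but after DSS no ratio could have passed it unless ratios on water had passed as well. Whether the genotype difference itself changed with treatment was not tested.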

How the data were processed

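Per the labels, EpCAM+ cells of the distal colon of 16 mice were sorted and sequenced, and transcripts were quantified by the authors with kallisto and sleuth on mm10. The deposited tables, 1 for DSS and 1 for water, give TPM for each APPRIS principal transcript, normalized between the mice of that table only. They also hold the authors' mean of the natural log of estimated counts, which was used only to judge depth, and the authors' own test results (p-values, q-values and fold changes), which were not used. Read totals are not in these values, so depth per mouse is unknown.

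Repeated lines (385 in each table) were dropped, and TPM was summed per gene symbol over 28988 transcripts. For 46 of the 50 proteasome genes only 1 transcript is listed. A level is therefore that of the listed transcripts, and not of every transcript of the gene. Genotypes were compared within a treatment with limma 3.58.1 (R 4.3.3) on log2(TPM + 1) with a variance trend, for genes averaging 1 TPM or more in those mice, called at an adjusted p under 0.05. A pseudocount of 1 understates the change of low genes. Between treatments no test was run. Levels were rescaled over all 16 mice, and a gene was counted as separated when the ranges of the mice did not overlap. Ratios were tested by exact two-sided permutation (scipy 1.17.1, Python 3.11.15) with adjustment over 8 tests. The limma step was tested on simulated data.

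Named genes were the 5 immunoproteasome genes, their counterparts, the other activators and inhibitors, the tissue-restricted genes, the highest and lowest difference of each part, and genes with an unadjusted p under 0.05 between genotypes. Members and lists were chosen with earlier results of these data known. Mice are separate animals, but share cages. Some genes of the interferon and ubiquitin lists are not reported here.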

Additional observations from a re-analysis of the deposited data

Results flagged for a closer look

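In 90 groups of 4 or 5 mice checked for a mouse standing apart from the others of its group, 12 did, and chance alone marks about 1 in 20 groups. That rate does not hold for the flagged groups of Psme1, Psma8, Psmb11 and Psmc3ip. There the other mice were at 0, so any value above 0 stands apart. The lowest mouse stood apart for Psmb5 in water Tnfr2ko replicate 5 (81.6 TPM) and for Psmc6 in water control replicate 3 (13.4 TPM). The highest mouse stood apart for Psma6 in water Tnfr2ko replicate 2 (116 TPM), for Psmd14 in water control replicate 2 (38.9 TPM), for Psmd3 in water control replicate 1 (52.5 TPM) and for Psme2 in DSS Tnfr2ko replicate 3 (70.3 TPM). Psme1 stood apart in the only water-treated mice above 0, control replicate 3 (22.3 TPM) and Tnfr2ko replicate 1 (9.29 TPM). Values near 0 stood apart for Psma8 in water control replicate 4 (0.332 TPM), Psmb11 in water control replicate 1 (0.127 TPM) and Psmc3ip in DSS Tnfr2ko replicate 1 (0.486 TPM) and water control replicate 3 (0.517 TPM). Groups of 3 mice could not be checked this way.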

How the results depend on the processing

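Of 134 values recomputed under another setting, 101 moved by less than 1 SD between mice (counts by at most 1.5 times) or, where tested, kept their direction and side of the threshold, and of 320 recomputed without 1 mouse, 295 did. Psmb8 and Psmb9 were lower and Psme4 higher after DSS on every scale tried, although Psmb9 overlapped when libraries were scaled to the same sum. Genes called after DSS numbered 1, or 0 with a pseudocount of 0.1, 0 with no filter and 0 to 3 without 1 mouse. On water they numbered 1, or 0 with a pseudocount of 0.1, 4 with no filter, 0 with a mean of at least 5 TPM and 1 to 2 without 1 mouse. No proteasome gene was called in any of these (0 to 0 without 1 mouse). A replicate block in the fit left 0 calls after DSS and 0 on water. Same-numbered mice did not deviate together (r from -0.197 to -0.0253 after DSS and from -0.0769 to 0.0932 on water), so they share only a number. Proteasome genes higher after DSS without overlap numbered 1 (4.52% of all genes were). They numbered 15 on TPM as deposited (18.9%), 12 at the same sum (11.6%), 11 by rank (10.1%) and 11 after quantile normalization (10.1%). In controls alone they numbered 7 (10.7%), in Tnfr2ko mice alone 13 (17.4%) and without 1 mouse 1 to 10. The count was 2 without DSS control replicate 1 (4.83% of all genes), 10 without DSS control replicate 3 (12.2%), 2 without water control replicate 3 (5.31%) and 4 without water Tnfr2ko replicate 2 (5.18%). Those lower numbered 2 (6.96% of all genes were), or 1 at the same sum (3.55%) and 5 in Tnfr2ko mice (17.8%). Without 1 mouse they numbered 2 to 4, where 4 came without DSS control replicate 3 (12.0%). The constitutive median of 0.22 was 0.56 as deposited, 0.61 at the same sum, 0.42 after quantile normalization and 0.16 to 0.24 without 1 mouse. The median of all genes moved as well, from 0.01 to 0.32, 0.36 and 0.18 on these scales. Relative to it the constitutive median was at 0.21 to 0.25. The immunoproteasome median of -0.19, which is the value of Psmb10, was 0.16 as deposited, 0.21 at the same sum and -0.02 after quantile normalization. It was -0.27 to -0.14 without 1 mouse. Its sign changed only with the median of all genes: relative to that it was at -0.21 to -0.15 on the 4 scalings. Psmb10 was 0.16 as deposited and 0.21 at the same sum, which relative to all genes was -0.16 and -0.15. Against the geometric mean of Psmb1 to Psmb7, the Psmb10 ratio between treatments was -0.03 and the Psme ratio 1.1, and by genotype the Psmb8 ratio on water was 0.0 and the Psme ratio after DSS 0.24, both of which changed sign. Without 1 mouse the ratios between treatments ran from -2.53 to -2.0 for Psmb8, -1.5 to -1.15 for Psmb9, -0.51 to -0.3 for Psmb10 and 0.42 to 0.65 for the Psme pair. By genotype after DSS they ran from -1.65 to -0.76, -1.12 to -0.5, -0.58 to -0.02 and -0.28 to 0.19 in the same order, and on water from -0.22 to 0.12, -0.27 to -0.06, -0.08 to 0.07 and -0.49 to -0.04. The causes of these changes were not tested.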
